A study of Mus musculus with 30 samples.

Results

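Colon RNA from 6 male mice on a high-fat diet and given estradiol (HFD+E2 M) was compared with colon RNA from 6 vehicle-treated male mice on the control diet (CD M), 12 of the 30 libraries of the series, chosen by the diet, sex and treatment on their labels. All mice were C57BL/6J males, 5 to 6 weeks old at the start according to the methods of the study, and were kept on their diet for 13 weeks. The CD held 10% and the HFD 60% of its energy as fat. During the last 3 weeks the HFD+E2 M mice received 9 intraperitoneal injections of 17β-estradiol (E2, 0.5 mg per kg body weight) and the CD M mice vehicle. The comparison asks what still set the colon of E2-treated HFD males apart from that of lean males. It uses none of the 6 libraries of vehicle-treated HFD males (HFD M), whose levels are given beside some genes for reference only and without a test. Diet and E2 differ together between the groups, so their parts in a difference cannot be told apart. Each animal gave 1 library of ribosomal RNA-depleted RNA from colon tissue, which the study names as distal, a mixture of epithelium, muscle, immune and connective tissue cells, in which fewer cells of a type and less RNA per cell cannot be told apart.

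The counts on genes ranged from 10283312 to 14926918 per library in CD M and from 9064697 to 17243712 in HFD+E2 M. The summed level of the colonocyte markers, led by Lgals4, in TPM (transcript abundance scaled by gene length and library), ranged from 5845 to 7580.0 TPM (median 6934) in CD M and from 5906 to 7836 TPM (median 6268) in HFD+E2 M. None of the 14 tested passed the threshold of the study, with edgeR or DESeq2, against 5.99% of all genes with edgeR, so this count is near the background. Replicate 1 of both groups and HFD+E2 M replicate 2 stood apart from the other animals. On the second principal component of the 500 most variable autosomal genes they lay at 18.3 (CD M) and 13.3 (HFD+E2 M), whereas the other 10 libraries lay between -9.74 and 4.37. On the first component, which held 27.4% of the variance, HFD+E2 M replicate 2 lay at 23.9 and the others between -12.6 and 14.5. This library also lay farthest from its own group (distance 31.1) and had the fewest genes detected (19246). The main counts are also given without replicate 1 of both groups.

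The colon epithelium is renewed from stem and progenitor cells that divide near the crypt base, and their daughters become absorptive colonocytes, mucus-secreting goblet cells or hormone-secreting enteroendocrine cells. Dividing cells switch on genes for DNA replication in S phase and genes for spindle assembly, chromosome segregation and cytokinesis in mitosis. Fatty acids and bile acids are ligands of nuclear receptors that set lipid metabolism in these cells, and the genes Esr1, Esr2 and Gper1 encode receptors through which estrogens act.

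The animals of the 2 groups were separated beyond the spread within them. Group accounted for 19.7% of the variance of the 500 genes in an exact permutation test over all regroupings of the animals (pseudo-F 2.45, p = 0.00433). Without replicate 1 of both groups its share was 28.0% (pseudo-F 3.10, exact permutation p = 0.00794). Taking all autosomal genes tested, the share was 14.7% (pseudo-F 1.72, exact permutation p = 0.0216). Of 15109 genes tested with edgeR's quasi-likelihood test, 905 (5.99%) were differentially expressed (DEGs) at the threshold of the study, read here as an unadjusted p-value under 0.05 together with a change of more than 0.4 on the log2 scale, up or down. They were 415 genes (2.75%) higher and 490 (3.24%) lower in HFD+E2 M. The balance of the directions was not stable. Without replicate 1 of both groups there were 1087 DEGs, 559 higher and 528 lower, and without HFD+E2 M replicate 5 there were 946, 484 higher and 462 lower. Disregarding the size of the change, 1622 genes had an unadjusted p-value under 0.05, where 755.5 would arise by chance. After Benjamini-Hochberg adjustment 32 genes (0.212%) had a p-value under 0.05, 19 higher and 13 lower. Leaving out CD M replicate 4 reduced this number to 7, and leaving out CD M replicate 2 gave 17. In HFD+E2 M it was 13 with replicate 3 left out, 20 with replicate 5 left out, 55 with replicate 1 left out and 53 with replicate 6 left out. With replicate 1 of both groups left out it was 70. It was 79 with the replicate number as a block, 86 without a filter on low counts and 239 with DESeq2. In log2 CPM (counts scaled by library size), 87 genes (0.576%) were higher and 52 (0.344%) lower in every HFD+E2 M animal than in every CD M animal.

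**Figure D1:**
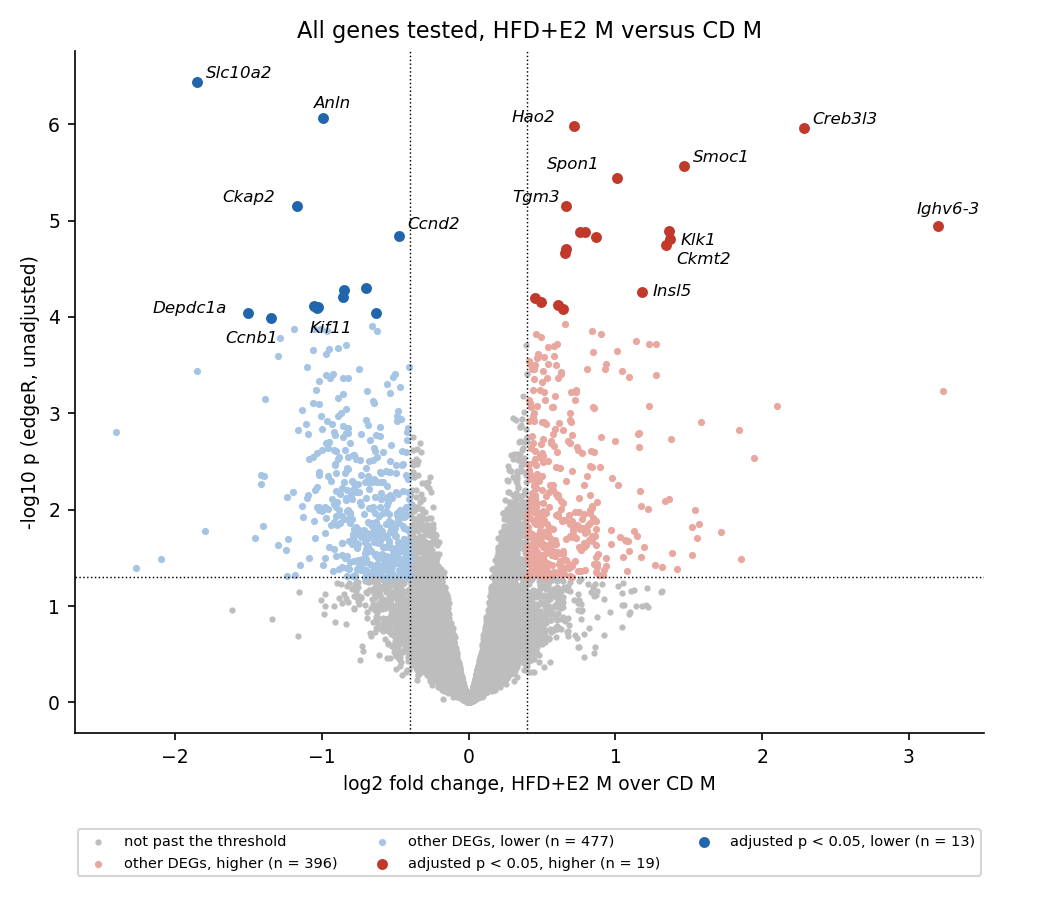
Each point is 1 of the 15109 genes tested, with its log2 fold change (HFD+E2 M over CD M) on the x axis and -log10 of its unadjusted p-value from edgeR on the y axis, and dotted lines mark the threshold of the study. The 32 genes past the adjusted threshold, 19 higher and 13 lower, are drawn larger, with Slc10a2 and Anln leading those that were lower and Creb3l3 and Hao2 those that were higher.

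Levels are given as TPM, which scales reads by gene length, and fold changes come from the counts. On the log2(TPM + 1) scale the median gene tested lay lower by 0.11 in HFD+E2 M, whereas its log2 fold change from counts was 0.000126, so that differences in TPM and fold changes from counts are not on the same scale. Among the genes past the adjusted threshold with at least 1 TPM and no overlap between the groups in log2 CPM, the 10 largest increases were those of Ighv6-3, Creb3l3, Smoc1, Klk1, RP23-465P18.1, Ckmt2, Spon1, Hsd3b3, Iyd and Hao2. Of the 32 genes, 29 reached the minimum of the count filter, 0.855 CPM, in all 12 libraries. Ighv6-3 and Creb3l3 reached it in 6 HFD+E2 M libraries but in only 0 and 2 of CD M, and Depdc1a in 6 of CD M but 4 of HFD+E2 M. Such genes were tested through the group where they were high, so their p-values are a description and no support for the difference. The same limit touches 195 of the 905 DEGs, which reached the minimum in fewer than 6 libraries of the group where they were lower, among them Angptl4, Spib, Krt17, Ly6d, Cidec, Adipoq, Sult1e1, Cxcl5 and Acta1. Creb3l3 (ENSMUSG00000035041, chr10:81084324-81098874; all gene coordinates are of GRCm38) encodes a membrane-bound transcription factor of lipid metabolism in liver and intestine. It ranged from 0 to 0.699 TPM (median 0.322) in CD M and from 1.03 to 3.93 TPM (median 1.96) in HFD+E2 M. Every E2-treated animal lay above every lean animal, although in CD M the gene had only 4 to 16 counts per library. Its log2 fold change was 2.29 (SE 0.32, edgeR adjusted p = 0.00416), and its median in HFD M was 1.06 TPM. It was not tested where every library had to have at least 10 counts.

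Klk1 (ENSMUSG00000063903, chr7:44225437-44229617), the gene of tissue kallikrein, a serine protease that releases kinins, was the most abundant of these genes. It ranged from 267 to 492 TPM (median 321) in CD M and from 494 to 999.5 TPM (median 777) in HFD+E2 M. The groups did not overlap, but CD M replicate 1 and HFD+E2 M replicate 4 nearly met. The log2 fold change was 1.37 (SE 0.22, edgeR adjusted p = 0.0157), with a median of 586 TPM in HFD M. Hao2, a peroxisomal hydroxyacid oxidase gene (ENSMUSG00000027870, chr3:98874521-98893239), ranged from 41.4 to 67.2 TPM (median 45.5) in CD M and from 58.6 to 97.99 TPM (median 71.4) in HFD+E2 M. Its ranges overlapped on the TPM scale only through CD M replicate 1, the highest of the lean animals. The log2 fold change was 0.71 (SE 0.10, edgeR adjusted p = 0.00416), and the HFD M median was 80.2 TPM. Hsd3b3, of the 3β-hydroxysteroid dehydrogenase family, rose by 0.79 on the log2 scale (SE 0.13, edgeR adjusted p = 0.0157), from a median of 7.05 TPM in CD M to 12.8 TPM, with 12.7 TPM in HFD M. Creb3l3, Klk1, Hao2 and Hsd3b3 thus had HFD M medians above their CD M medians.

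Spon1 and Smoc1 encode the extracellular matrix proteins F-spondin and SMOC-1. Spon1 (ENSMUSG00000038156, chr7:113765998-114043370) ranged from 1.48 to 2.56 TPM (median 1.94) in CD M and from 2.92 to 4.66 TPM (median 3.86) in HFD+E2 M, and its HFD M median was 1.96 TPM. All 6 E2-treated animals exceeded all 6 lean animals, and the log2 fold change was 1.01 (SE 0.16, edgeR adjusted p = 0.00901). Smoc1 (ENSMUSG00000021136, chr12:81026808-81186414) ranged from 0.543 to 1.21 TPM (median 0.675) in CD M and from 0.852 to 2.64 TPM (median 2.14) in HFD+E2 M, with 0.853 TPM as the HFD M median. In TPM only HFD+E2 M replicate 2 fell within the CD M range, and the log2 fold change was 1.47 (SE 0.22, edgeR adjusted p = 0.00829). Ckmt2, a mitochondrial creatine kinase gene, rose by 1.35 on the log2 scale (SE 0.23, edgeR adjusted p = 0.0169), and Iyd, the iodotyrosine deiodinase gene, by 0.76 (SE 0.13, edgeR adjusted p = 0.0157). The unnamed transcript RP23-465P18.1 rose by 1.37 in the counts (SE 0.23, edgeR adjusted p = 0.0157), but in TPM it was listed at 0 in 1 library of each group and its ranges overlapped. The largest fold change, 3.20 (SE 0.52, edgeR adjusted p = 0.0157), was that of Ighv6-3, an immunoglobulin heavy chain variable gene with 0 to 10 counts per CD M library and 11 to 80 per HFD+E2 M library, tested only through HFD+E2 M. Such genes are close copies of each other, so that the reads of 1 gene may come from another. In HFD M its median was 11.5 TPM.

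**Figure D2:**
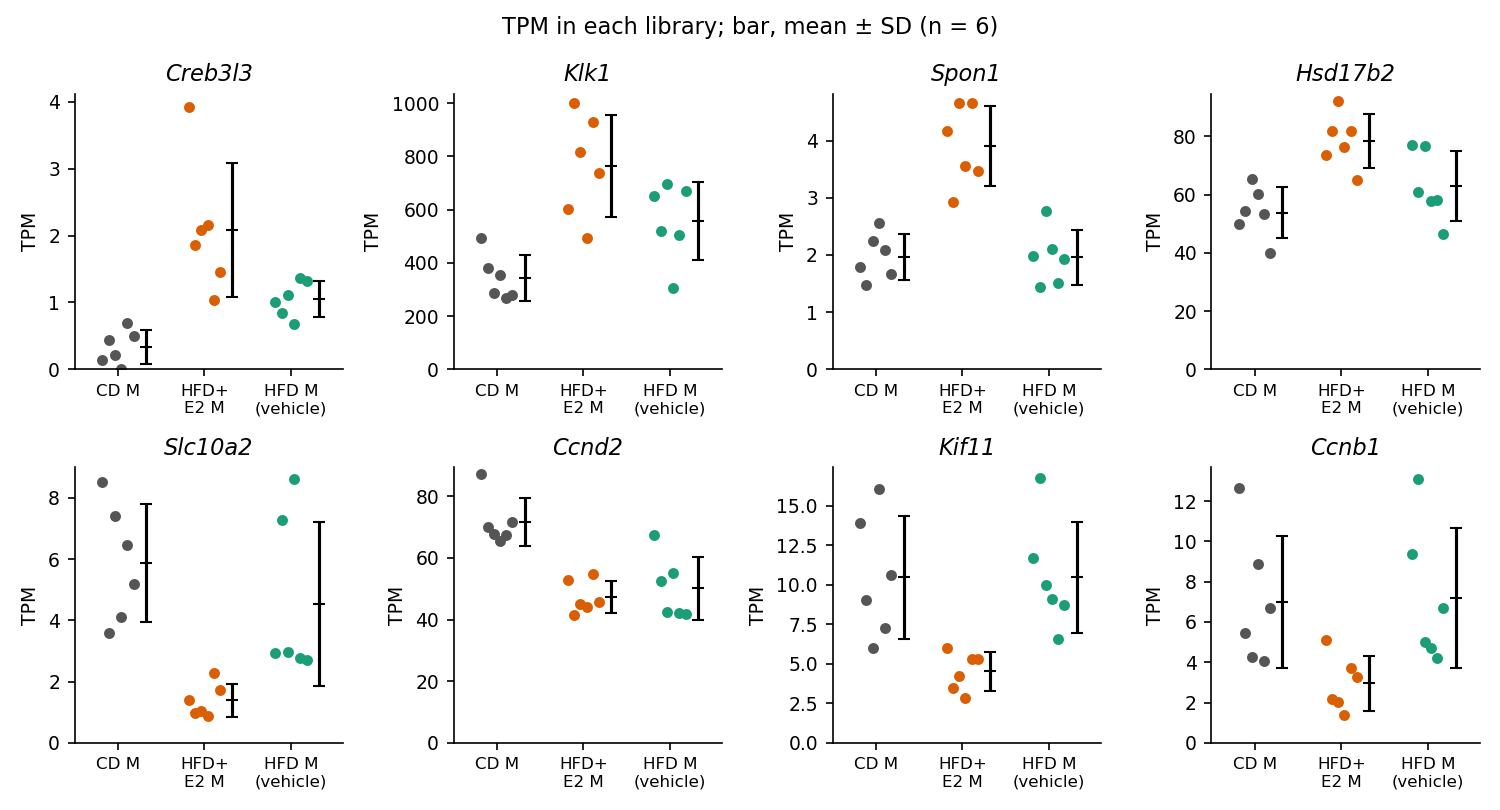
TPM of 8 genes (y axes, each starting at 0) in the 6 libraries of CD M, HFD+E2 M and, for reference, vehicle-treated HFD M, with the mean and SD beside the points. The points of CD M and HFD+E2 M do not overlap for Creb3l3, Klk1, Spon1, Slc10a2 and Ccnd2, and they meet or overlap for Hsd17b2, Kif11 and Ccnb1.

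The 10 largest decreases under the same rule were those of Slc10a2, Depdc1a, Ckap2, Kif11, Knstrn, Racgap1, Anln, Pappa, Htr3a and Emp1. Slc10a2 (ENSMUSG00000023073, chr8:5085623-5105232), the gene of the apical sodium-dependent bile acid transporter, ranged from 3.57 to 8.51 TPM (median 5.82) in CD M and from 0.887 to 2.29 TPM (median 1.22) in HFD+E2 M. The highest E2-treated animal lay below the lowest lean animal. Its log2 fold change was -1.85 (SE 0.24, edgeR adjusted p = 0.00416), kept past the adjusted threshold in all 12 fits that left out 1 library, and the HFD M median was 2.94 TPM. Anln (ENSMUSG00000036777, chr9:22331214-22389206), which encodes anillin, a scaffold of the contractile ring in cytokinesis, ranged from 4.82 to 9.14 TPM (median 5.98) in CD M and from 2.14 to 3.49 TPM (median 2.995) in HFD+E2 M. These groups did not overlap either, and Anln fell by 0.996 on the log2 scale (SE 0.14, edgeR adjusted p = 0.00416), also past the adjusted threshold in all 12 such fits. Its HFD M median was 5.18 TPM.

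Ckap2, for a spindle-associated protein, fell by 1.17 on the log2 scale (SE 0.19, edgeR adjusted p = 0.0134). Racgap1, which acts in cytokinesis, fell by 1.03 (SE 0.20, edgeR adjusted p = 0.0431), and Knstrn, for a kinetochore and spindle protein, by 1.03 (SE 0.20, edgeR adjusted p = 0.0431). Depdc1a, tested through CD M, had a log2 fold change of -1.502 (SE 0.30, edgeR adjusted p = 0.0449). Pappa, the gene of a metalloproteinase that cleaves IGF-binding proteins, ranged from 0.812 to 1.29 TPM (median 1.02) in CD M and from 0.308 to 0.589 TPM (median 0.473) in HFD+E2 M. It was lower in all 6 E2-treated animals, by 0.86 on the log2 scale (SE 0.17, edgeR adjusted p = 0.0421). Htr3a, a subunit of the serotonin-gated ion channel, ranged from 3.33 to 4.48 TPM (median 3.96) in CD M and from 1.53 to 2.17 TPM (median 1.90) in HFD+E2 M and had an HFD M median of 4.07 TPM. Its groups were also apart, with a log2 fold change of -0.85 (SE 0.16, edgeR adjusted p = 0.0393). Emp1, an epithelial membrane protein gene, fell by 0.63 (SE 0.13, edgeR adjusted p = 0.0449). Kif11, Racgap1 and Pappa lost the adjusted threshold in 9, and Depdc1a, Knstrn, Htr3a and Emp1 in 8, of the 12 fits that left out 1 library, with the direction kept in each. Ckap2, Klk1, RP23-465P18.1 and Ighv6-3 lost it in 1 and Ckmt2, Hsd3b3 and Iyd in 2 of these fits. Of the other 12 genes past the adjusted threshold, Insl5, Ccbl1, Tgm3, Apob, Scin, Slc46a1, Naaladl1, Samhd1 and Tmcc3 were higher and Ccnb1, Cps1 and Ccnd2 lower.

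Genes of mitosis were the group with the most members lower. Of the 22 on the list, 21 were DEGs lower in HFD+E2 M against 3.24% of all genes, none was higher, and Kif11 and Ccnb1 passed the adjusted threshold. The median log2 fold change was -0.86, against 0.000126 over all genes. The remaining gene, Tpx2, had a log2 fold change of -0.70 (edgeR, unadjusted p = 0.0509). Their summed level ranged from 165 to 452 TPM (median 231) in CD M and from 81.4 to 155 TPM (median 132) in HFD+E2 M, without overlap, and from 159.9 to 372 TPM (median 231) in HFD M. On the log2 CPM scale, which lacks the TPM shift, the mean over the list did overlap: relative to the CD M mean it ran from -0.54 (replicate 5) to 0.82 (replicate 4) in CD M and from -1.45 (replicate 4) to -0.46 (replicate 2) in HFD+E2 M. The count was 18 without replicate 1 of both groups or without HFD+E2 M replicate 1 alone, 19 without CD M replicate 4, the highest lean animal, and 19 without HFD+E2 M replicate 4, the lowest treated animal.

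Kif11 (ENSMUSG00000012443, chr19:37376403-37421859) encodes the kinesin that pushes spindle poles apart. It ranged from 5.98 to 16.1 TPM (median 9.81) in CD M and from 2.83 to 6.01 TPM (median 4.76) in HFD+E2 M, with 9.53 TPM as the HFD M median. The TPM ranges met at HFD+E2 M replicate 1 and CD M replicate 3, and the log2 fold change was -1.05 (SE 0.20, edgeR adjusted p = 0.0431). Ccnb1 (ENSMUSG00000041431, chr13:100778650-100786570), for cyclin B1, which drives entry into mitosis, ranged from 4.04 to 12.7 TPM (median 6.07) in CD M and from 1.36 to 5.12 TPM (median 2.72) in HFD+E2 M. Only HFD+E2 M replicate 1 lay inside the CD M range. Ccnb1 fell by 1.35 on the log2 scale (SE 0.27, edgeR adjusted p = 0.0481, lost in 8 of the 12 fits without 1 library). Plk1, a mitotic kinase, Ccnb2, for cyclin B2, Top2a, the DNA topoisomerase of replicating and dividing cells, and Cenpf, a kinetochore protein, fell by 1.11, 1.02, 0.95 and 0.96 (edgeR adjusted p = 0.121, 0.0972, 0.0687 and 0.0588). Foxm1, the transcription factor that drives many of these genes, fell by 0.83 (SE 0.21, edgeR unadjusted p = 0.000894). The proliferation marker Mki67, the most abundant of the list, ranged from 37.9 to 103 TPM (median 42.3) in CD M and from 19.2 to 36.6 TPM (median 29.6) in HFD+E2 M and fell by 0.74 (SE 0.28, edgeR unadjusted p = 0.0194). Its groups did not overlap in TPM but did in log2 CPM, and the unadjusted p-value was 0.0551 without replicate 1 of both groups. Without CD M replicate 4 Mki67 fell by 0.446.

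**Figure D3:**
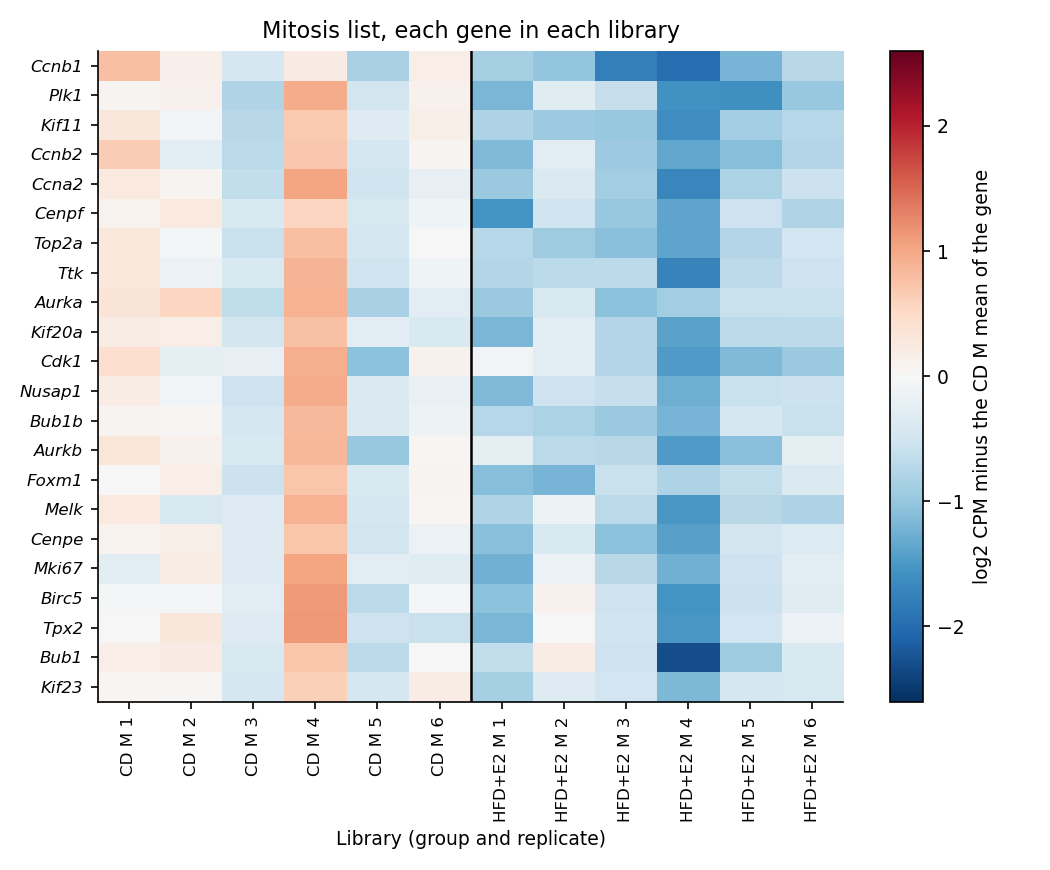
The 22 genes of the mitosis list (y axis, ordered by fold change) in each of the 12 libraries (x axis), coloured by log2 CPM minus the gene's mean in CD M. CD M replicate 4 is the reddest column and HFD+E2 M replicate 4 the bluest, and most genes are below the CD M mean in all 6 E2-treated animals.

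Since these genes moved together, their promoters are shown for 4 members. In the 250 bases before the transcription start, the CCAAT box (CCAAT or, on the other strand, ATTGG), the binding motif of the factor NF-Y and a known element of G2/M promoters, was found in 14 of the 17 mitosis genes with an entry in the RefSeq table of GRCm38.p6, against 37.5% of all 27025 genes in it. It was also found in 13 of 18 genes of DNA replication, in 14 of 14 of cholesterol synthesis and in 7 of 8 clock repressors, a list without a DEG. The motif TTTGAA (or TTCAAA), the core of the cell cycle homology region, was found in 5 of the 17, against 18.3% of all genes. A match is a description of the sequence and not evidence that a factor binds there. Transcription starts were those of RefSeq, and the Ccnb1 stretch placed by them overlaps the gene coordinates given above. The promoters of Ccnb1 (chr13:100786487-100786736, minus strand), Ccnb2 (chr9:70421555-70421804, minus strand), Top2a (chr11:99024190-99024439, minus strand) and Kif11 (chr19:37376132-37376381, plus strand), with 2, 3, 6 and 1 matches to the CCAAT box in capitals, read as follows, 5′ to 3′.
Ccnb1: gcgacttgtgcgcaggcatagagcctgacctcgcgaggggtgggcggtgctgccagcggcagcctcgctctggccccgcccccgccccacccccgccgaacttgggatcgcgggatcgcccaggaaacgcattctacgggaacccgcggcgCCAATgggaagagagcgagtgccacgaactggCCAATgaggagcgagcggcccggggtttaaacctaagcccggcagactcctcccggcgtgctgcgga
Ccnb2: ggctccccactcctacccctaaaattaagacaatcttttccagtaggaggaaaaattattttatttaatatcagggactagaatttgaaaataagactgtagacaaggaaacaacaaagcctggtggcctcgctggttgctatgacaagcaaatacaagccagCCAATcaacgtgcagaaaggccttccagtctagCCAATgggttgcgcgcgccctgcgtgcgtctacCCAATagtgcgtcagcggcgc
Top2a: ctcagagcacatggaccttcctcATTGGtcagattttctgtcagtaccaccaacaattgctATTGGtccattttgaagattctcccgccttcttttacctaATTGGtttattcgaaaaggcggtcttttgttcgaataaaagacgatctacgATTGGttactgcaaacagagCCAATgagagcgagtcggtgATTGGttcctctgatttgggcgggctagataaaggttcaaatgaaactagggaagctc
Kif11: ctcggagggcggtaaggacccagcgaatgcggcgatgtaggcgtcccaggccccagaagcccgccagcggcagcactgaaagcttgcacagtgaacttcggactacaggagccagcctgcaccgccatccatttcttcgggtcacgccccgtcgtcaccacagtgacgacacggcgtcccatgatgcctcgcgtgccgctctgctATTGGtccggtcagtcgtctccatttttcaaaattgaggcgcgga

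Fewer genes of DNA replication passed. Of 22 tested, 9 were DEGs lower in HFD+E2 M, against 3.24% of all genes, none was higher and 13 did not pass (median log2 fold change -0.47). With CD M replicate 4 left out, the list held 1 DEG. In HFD+E2 M the count was 3 with replicate 2 left out, 5 with replicate 4, 4 with replicate 5 and 15 with replicate 6, and it was 12 when replicate 1 of both groups was left out. Rrm1 and Rrm2, the subunits of ribonucleotide reductase, fell by 0.47 and 0.88 on the log2 scale (edgeR unadjusted p = 0.0137 and 0.0137). Mcm7, a subunit of the replicative helicase, fell by 0.51, and Mcm10, a replication initiation factor, by 0.70 (edgeR unadjusted p = 0.0173 and 0.0233). Without CD M replicate 4, Rrm1, Mcm7 and Mcm10 were no DEGs. Pcna, the sliding clamp and the most abundant member, had a log2 fold change of -0.23 (95% interval -0.67 to 0.21).

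Among 18 genes of crypt stem cells and Wnt targets tested, 2 were lower, against 3.24% of all genes, and none higher (median -0.13). Ccnd2 (ENSMUSG00000000184, chr6:127125162-127152193), for cyclin D2, which carries cells from G1 into S phase, was the most abundant of them. It ranged from 65.5 to 87.2 TPM (median 69.01) in CD M and from 41.5 to 54.7 TPM (median 45.4) in HFD+E2 M. No treated animal reached the lean range, and the log2 fold change was -0.47 (SE 0.08, edgeR adjusted p = 0.0157, lost in 2 of the 12 fits without 1 library), with an HFD M median of 47.4 TPM. Prom1, a stem and progenitor cell surface glycoprotein, fell by 0.90 (SE 0.31, edgeR unadjusted p = 0.0117), from a median of 30.04 to 14.1 TPM, with 15.4 TPM in HFD M. Among 24 genes of ion and water transport, Car1, a carbonic anhydrase of colonocytes, was the 1 DEG, against 5.99% of all genes, a share near the background. It ranged from 158 to 1002 TPM (median 315) in CD M and from 63.8 to 266 TPM (median 113) in HFD+E2 M, and these ranges overlapped. Its log2 fold change was -1.40 (SE 0.49, edgeR unadjusted p = 0.0149, 0.0679 without replicate 1 of both groups).

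**Figure D4:**
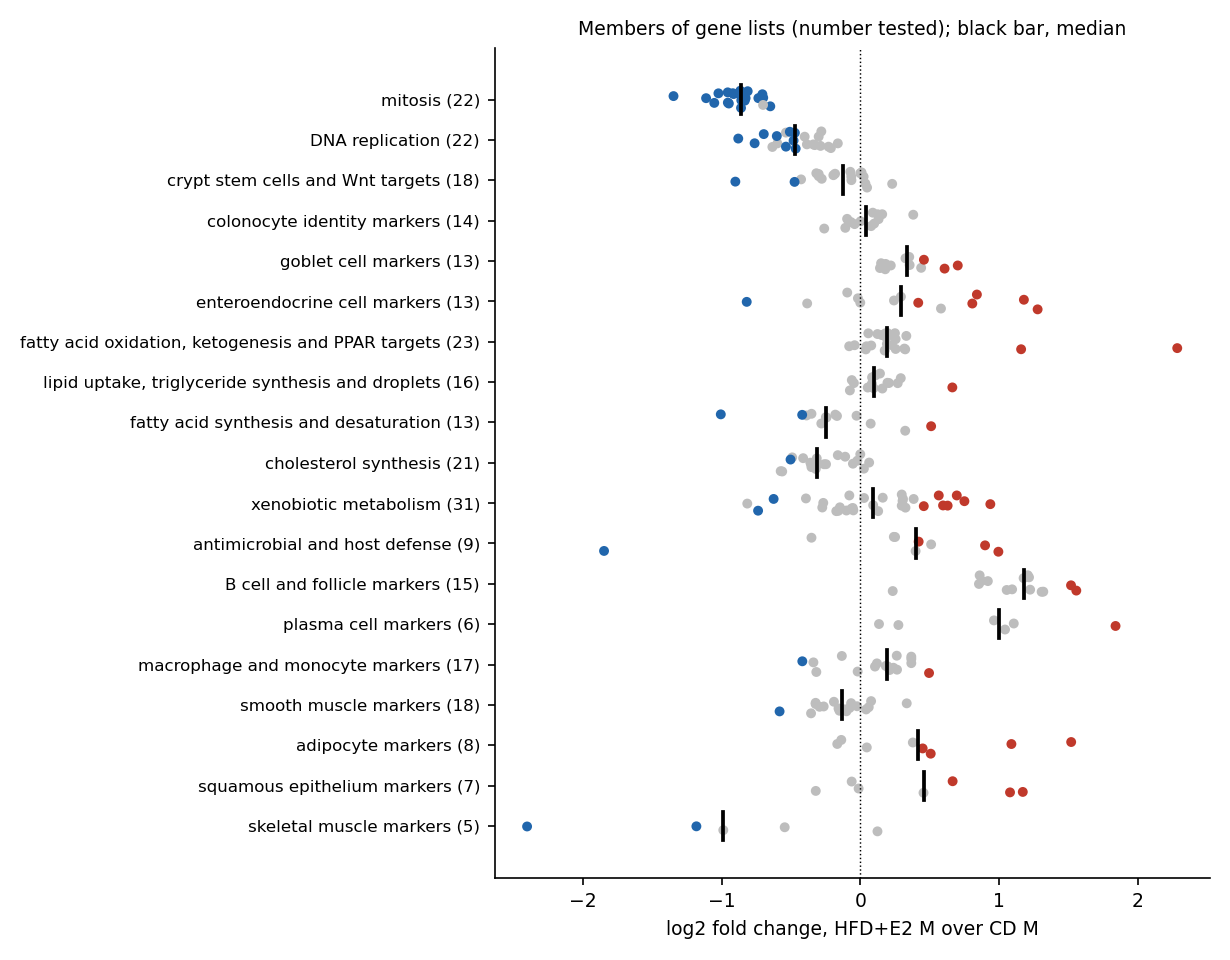
Each point is a gene tested, placed by its log2 fold change (x axis) in its list (y axis, number tested in brackets), red for a DEG higher and blue for a DEG lower in HFD+E2 M, grey for the rest, and a black bar marks the median of the list. Of the mitosis list 21 of 22 points are blue, all 13 goblet cell and all 15 B cell markers lie right of 0, and skeletal muscle markers spread widely.

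Of 13 goblet cell markers, 3 were DEGs and higher (Muc2, Spink4 and Sytl2), against 2.75% of all genes, and all 13 had a positive fold change (median 0.34). Without replicate 1 of both groups 3 were DEGs as well. Muc2 (ENSMUSG00000025515, chr7:141690340-141754693), the main gel-forming mucin of the colon, ranged from 1210.0 to 2195 TPM (median 1817) in CD M and from 2075 to 3161 TPM (median 2506) in HFD+E2 M. The groups overlapped between 2075 and 2195 TPM, and Muc2 rose by 0.61 (SE 0.14, edgeR unadjusted p = 0.000435), with 1754 TPM as the HFD M median. Sytl2, a vesicle trafficking gene, rose by 0.46 (SE 0.10, edgeR unadjusted p = 0.00015). The endoplasmic reticulum stress sensor Ern2, which is expressed in mucus-secreting cells, rose by 0.41 (SE 0.09, edgeR unadjusted p = 0.000289), 1 of 2 genes higher among 18 of endoplasmic reticulum stress, against 2.75% of all genes. Ern2 fell short of the fold change minimum in 5 of the 12 fits without 1 library, and both Sytl2 and Ern2 did so in TPM.

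Of 13 enteroendocrine markers, Chga, Chgb, Tph1, Pyy and Insl5 were higher and Tac1, a tachykinin gene, lower (median 0.29), against 2.75% and 3.24% of all genes, and 4 of the 13 had a negative fold change. Without replicate 1 of both groups 5 were higher and 1 lower. With DESeq2 or without a filter on low counts, 17 markers were tested and the median was 0.005 and -0.002. Insl5 (ENSMUSG00000066090, chr4:103017872-103026842), a peptide hormone of colonic L cells, ranged from 4.39 to 14.3 TPM (median 9.15) in CD M and from 11.5 to 24.3 TPM (median 19.5) in HFD+E2 M. The 2 groups overlapped only through HFD+E2 M replicate 4 and the highest 2 lean animals. It rose by 1.18 (SE 0.23, edgeR adjusted p = 0.0399, lost in 7 of the 12 fits without 1 library), and its HFD M median was 16.3 TPM. Tph1, the enzyme that makes serotonin in enterochromaffin cells, rose by 1.28 (SE 0.27), and the granins Chga and Chgb by 0.81 and 0.84 (edgeR unadjusted p = 0.000191, 0.000344 and 0.00359). The summed level of the list overlapped (from 131 to 239.7 TPM (median 171) in CD M and from 167 to 224 TPM (median 184) in HFD+E2 M) and was led by Reg4, whose log2 fold change was 0.00039.

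Genes of lipid metabolism were described in 4 lists. Of 23 genes of fatty acid oxidation, ketogenesis and PPAR targets, 2 were higher, Creb3l3 and Angptl4, against 2.75% of all genes, none was lower, and 21 had a positive fold change (median 0.19). With at least 10 counts in every library, where both were left out, none of 20 was a DEG. Angptl4, an inhibitor of lipoprotein lipase, ranged from 0.315 to 2.37 TPM (median 0.511) in CD M and from 1.38 to 2.94 TPM (median 2.08) in HFD+E2 M. CD M replicates 1 and 3 overlapped the treated animals, and the log2 fold change was 1.16 (SE 0.33, edgeR unadjusted p = 0.00223), with only 4 CD M libraries at the filter minimum. Apob, the structural protein of chylomicrons and very-low-density lipoproteins, rose by 0.66 (SE 0.12, edgeR adjusted p = 0.0177, lost in 4 of the 12 fits without 1 library), the 1 DEG among 16 genes of lipid uptake, triglyceride synthesis and droplets, against 5.99% of all genes. Scd1, the stearoyl-CoA desaturase, ranged from 14.4 to 39.4 TPM (median 24.7) in CD M and from 7.47 to 15.6 TPM (median 12.2) in HFD+E2 M. It fell by 1.01 (SE 0.24, edgeR unadjusted p = 0.00107), with only CD M replicate 5 within the treated range, and Fads1, another desaturase, was lower too. Elovl6, a fatty acid elongase, rose by 0.51 (SE 0.13, edgeR unadjusted p = 0.00124), but was no DEG in TPM. These were the 3 DEGs of 13 genes of fatty acid synthesis and desaturation, 1 higher and 2 lower, against 2.75% and 3.24% of all genes. Of the 21 genes of cholesterol synthesis reported here, 18 had a negative fold change (median -0.31), and Hsd17b7, a reductase that also acts on steroids, was the 1 DEG, against 5.99% of all genes, lower by 0.50 (edgeR unadjusted p = 0.0186). It was no DEG without CD M replicate 1 or without CD M replicate 4.

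Of 31 genes of xenobiotic metabolism, 7 were higher and 2 lower, against 2.75% and 3.24% of all genes (median 0.09). Ces2e, a carboxylesterase, Cyp4f14, a cytochrome P450, and Fmo5, a flavin monooxygenase, rose by 0.94, 0.70 and 0.63 (edgeR unadjusted p = 0.000309, 0.000596 and 0.000374), and the others were Cyp2c65, Cyp2d26, Cyp2s1 and Nr1i3. Gsta4 (ENSMUSG00000032348, chr9:78191966-78209348), a glutathione S-transferase that clears lipid peroxidation products, ranged from 27.1 to 34.9 TPM (median 29.8) in CD M and from 14.8 to 23.2 TPM (median 17.8) in HFD+E2 M. The groups did not overlap, and the HFD M median was 27.3 TPM. Gsta4 fell by 0.62 (SE 0.13, edgeR unadjusted p = 0.00014, 0.0935 with all 30 libraries in the fit), as did its relative Gsta3.

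Of 10 genes of sex hormone receptors, steroid metabolism and estrogen response tested, 2 were higher and 1 lower, against 2.75% and 3.24% of all genes (median 0.18). Hsd17b2 (ENSMUSG00000031844, chr8:117701946-117759029), which encodes the enzyme that converts estradiol to estrone, ranged from 40.1 to 65.3 TPM (median 53.8) in CD M and from 65.1 to 92.2 TPM (median 79.1) in HFD+E2 M. Only the lowest treated animal, replicate 6, fell within the lean range in TPM, and none did in log2 CPM. The log2 fold change was 0.66 (SE 0.14, edgeR adjusted p = 0.052), with an HFD M median of 59.6 TPM. Greb1, an estrogen-induced gene in other tissues, rose by 0.46 (SE 0.16, edgeR unadjusted p = 0.00866), with no overlap in log2 CPM, but was no DEG in TPM (log2(TPM + 1) difference 0.25, limma unadjusted p = 0.355). Sult1e1, the estrogen sulfotransferase, ranged from 1.42 to 6.04 TPM (median 3.04) in CD M and from 0.0567 to 4.29 TPM (median 0.833) in HFD+E2 M. HFD+E2 M replicate 5 lay inside the lean range and the other 5 treated animals below it, with a log2 fold change of -1.15 (SE 0.50, edgeR unadjusted p = 0.0378, 0.0604 without replicate 1 of both groups). It reached the filter minimum in only 3 HFD+E2 M libraries and was thus tested through CD M. The log2 fold change was -1.83 without HFD+E2 M replicate 5, and Sult1e1 was no DEG in 7 of the other 11 fits without 1 library. None of the 3 estrogen receptor genes was a DEG with all 12 libraries in edgeR, against 5.99% of all genes, so this count is near the background. The log2 fold change was -0.22 for Esr1 (95% interval -0.58 to 0.13), 0.19 for Esr2 (-0.20 to 0.58) and 0.57 for Gper1 (-0.15 to 1.28). Gper1 was a DEG and higher without HFD+E2 M replicate 4 (log2 fold change 0.71, edgeR unadjusted p = 0.0437). It had 5 to 14 counts per CD M library, with only 3 of these libraries at the filter minimum. The library left out had its lowest treated count, 7, so this call is a description and no support for a difference. Esr1 was a DEG and lower on the log2(TPM + 0.1) scale (difference -0.49, limma unadjusted p = 0.0401).

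None of the 19 circadian clock genes reported here was a DEG with edgeR or DESeq2, and the list is not complete. With 5.99% of all genes called, a count of 0 among 19 is near the background. Arntl (Bmal1) and Npas2, the activators, had log2 fold changes of 0.48 (95% interval -0.27 to 1.24) and 0.16 (-0.46 to 0.78). The repressors Per2, Nr1d1 and Ciart had 0.20 (-0.32 to 0.72), -0.24 (-0.53 to 0.06) and -0.26 (-1.09 to 0.56). The intervals of Arntl and Ciart include changes of over 1 on the log2 scale, whereas those of Npas2, Per2 and Nr1d1 do not. Over the 12 fits without 1 library, Arntl ranged from 0.264 to 0.638 and Npas2 from -0.055 to 0.364. Per2 ranged from 0.0921 to 0.357, Nr1d1 from -0.296 to -0.155 and Ciart from -0.668 to -0.0432.

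**Figure D5:**
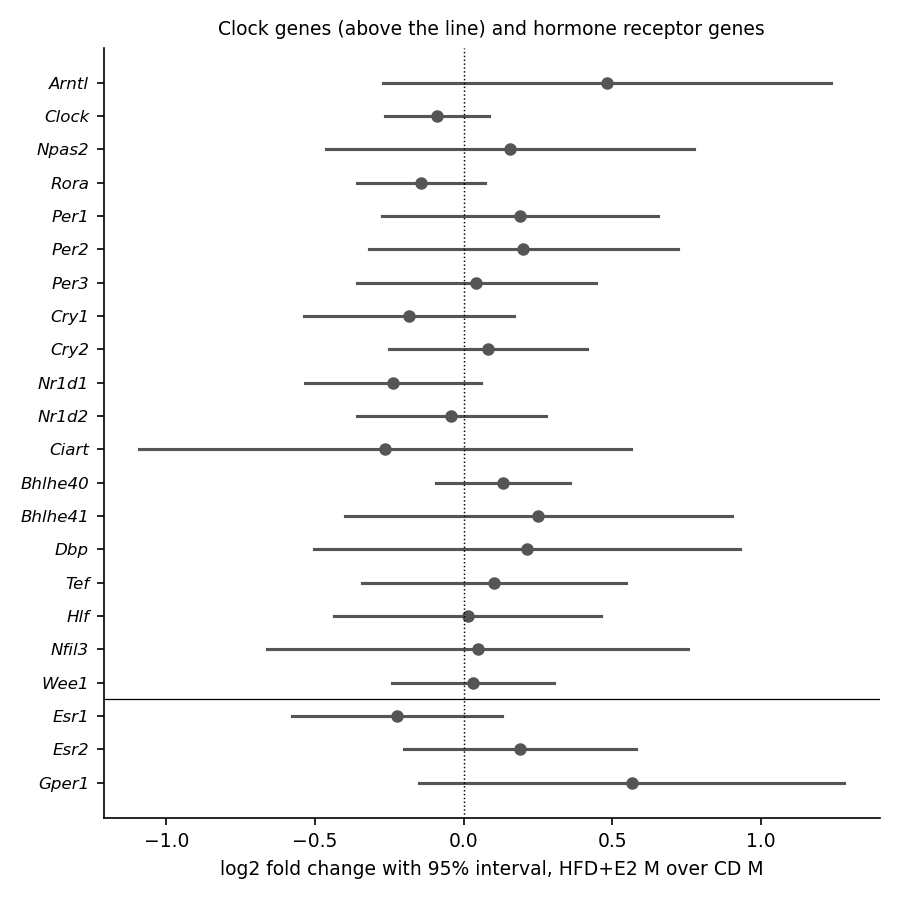
Log2 fold change (points) with its 95% interval (lines) from edgeR for 19 clock genes and, under the line, 3 estrogen receptor genes, HFD+E2 M over CD M. All intervals plotted include 0, and those of Arntl, Gper1 and Ciart are among the widest.

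Of 26 genes reported here that the study names for its diet or estrogen comparisons, some of them for females (Cxcl5 and Nos2 among them), 25 were tested, of which 2 were higher and 5 lower, against 2.75% and 3.24% of all genes. The list was chosen in part on these libraries and is no independent evidence. Gpx3, a secreted glutathione peroxidase, and Bcl6, a transcriptional repressor, were higher by 0.64 and 0.58. Gpx3 was no DEG without a filter on low counts (edgeR unadjusted p = 0.0515) or in 5 of the 12 fits without 1 library, and Bcl6 was none in TPM. Cdk1, Melk, Mki67, Alox15 and Cxcl5 were lower, of which Cdk1 and Melk, kinases of dividing cells, fell by 0.87 and 0.83 and Alox15, a lipoxygenase, by 0.77 (edgeR unadjusted p = 0.029, 0.00555, 0.0116, 0.00368 and 0.0171, in the order Gpx3, Bcl6, Cdk1, Melk, Alox15). The macrophage marker Adgre1 (F4/80) had a log2 fold change of -0.13 (95% interval -0.53 to 0.26). Nos2 was too low for the filter, with 5 to 61 counts per library in CD M and 0 to 12 in HFD+E2 M (two-sided exact permutation test of log2 CPM, p = 0.292).

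Of 9 antimicrobial and host defense genes tested of 23, Saa1, Lyz1 and Lypd8 were higher and Cxcl5 lower, against 2.75% and 3.24% of all genes (median 0.40). With DESeq2 or without a filter on low counts, 22 were tested and the median was 0.049 and 0.034. Saa1 (ENSMUSG00000074115, chr7:46740501-46742980), an acute phase protein that the epithelium also makes, ranged from 398 to 715 TPM (median 522) in CD M and from 587 to 1226 TPM (median 939.8) in HFD+E2 M. The upper 4 treated animals exceeded all lean animals, and Saa1 rose by 0.90 (SE 0.18, edgeR adjusted p = 0.0527), with 669.9 TPM in HFD M. Lyz1, the Paneth cell lysozyme, rose by 0.996 (edgeR unadjusted p = 0.00192) and Lypd8, which binds flagella and keeps bacteria from the epithelium, by 0.42 (edgeR unadjusted p = 0.0341). Lypd8 was no DEG in 6 of the 12 fits without 1 library (log2 fold change 0.232 without HFD+E2 M replicate 2), without a filter on low counts or in TPM, and Lyz1 was none in TPM. Saa1 and Lyz1 have close copies, Saa2 and Lyz2, so reads may have been split between them. Cxcl5, a neutrophil chemoattractant, ranged from 0.473 to 2.23 TPM (median 1.13) in CD M and from 0.0513 to 0.667 TPM (median 0.229) in HFD+E2 M and had a log2 fold change of -1.85 (SE 0.42, edgeR adjusted p = 0.0685, unadjusted p = 0.0633 with all 30 libraries in the fit). Only HFD+E2 M replicate 6 lay inside its lean range, and Cxcl5 reached the filter minimum in 5 CD M libraries and 1 of HFD+E2 M. Of 17 complement genes, 2 were higher and 1 lower, against 2.75% and 3.24% of all genes. C7, of the membrane attack complex, fell by 1.003 (SE 0.20, edgeR adjusted p = 0.052), and Cfb, of the alternative pathway, rose by 0.67 (SE 0.21, edgeR unadjusted p = 0.00507), as did Cfp.

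B cell and plasma cell genes had the highest median fold changes of the lists, and their counts of DEGs depended on 1 lean animal. Of 15 B cell and follicle markers, 2 were DEGs, both higher, against 2.75% of all genes, and all 15 had a positive fold change (median 1.18). With at least 10 counts in every library, 3 were tested and 1 was higher. Ighm, the constant gene of IgM, ranged from 5.22 to 30.3 TPM (median 8.998) in CD M and from 15.5 to 71.8 TPM (median 19.1) in HFD+E2 M. CD M replicate 1 was the highest lean animal and overlapped 4 of the treated animals. Ighm rose by 1.52 (edgeR unadjusted p = 0.0152). Spib, a transcription factor of B cells, reached the filter minimum in 6 HFD+E2 M but only 3 CD M libraries and had a log2 fold change of 1.56 (edgeR unadjusted p = 0.0199), 2.38 without CD M replicate 1. Igkc, the immunoglobulin kappa constant gene and the 1 DEG of 6 plasma cell markers, against 2.75% of all genes, ranged from 26.6 to 154 TPM (median 48.3) in CD M and from 109.6 to 335 TPM (median 149) in HFD+E2 M and rose by 1.84 (SE 0.44, edgeR unadjusted p = 0.00149), with only CD M replicate 1 inside the treated range. The summed B cell markers ranged from 13.6 to 125 TPM (median 25.3) in CD M and from 37.4 to 171 TPM (median 54.2) in HFD+E2 M, with the CD M maximum in replicate 1. Without CD M replicate 1, 14 of the 15 B cell markers were DEGs and higher (median 2.02). So were 4 of 6 plasma cell markers and 4 of 10 genes of MHC class II antigen presentation, against 480 of all 15186 genes tested. Without replicate 1 of both groups these numbers were 13 of 14, 4 of 6 and 6 of 10, against 559 of all 14972 genes tested. With all 12 libraries, Spib and Fcer2a reached the filter minimum in only 3 CD M libraries and H2-DMb2 in 4, whereas Ighm reached it in all 6. Calls of markers that were tested through HFD+E2 M are a description and no support for the difference. In the other 11 fits without 1 library 2 or 3 B cell markers were DEGs. With all 12 libraries none of 10 genes of MHC class II antigen presentation was a DEG in edgeR (median 0.38), against 5.99% of all genes. Of 12 such genes, DESeq2 gave 2 higher, the fit without a filter on low counts 1 and the fit with all 30 libraries 2. Of 22 T cell and NK cell markers only 4 passed the filter and none was a DEG, against 5.99% of all genes. Counts of 0 among 4 and among 10 genes are near the background. Without a filter 3 of 21 were higher (median 0.635), with DESeq2 1 of 21 (median 0.612) and with all 30 libraries in the fit 1 of 6. Over all genes tested, 776 of 27491 were higher without a filter, 573 of 27473 with DESeq2 and 441 of 16060 with all 30 libraries. Of 17 macrophage and monocyte markers Ccl9 was higher and Cx3cr1 lower, against 2.75% and 3.24% of all genes. How much lymphoid tissue each colon piece held is not given in the sources used here, and its part in these values was not tested.

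Among markers of tissues around the epithelium, few squamous and skeletal muscle markers passed the filter. The counts of DEGs among adipocyte, squamous and skeletal muscle markers changed with the filter and the libraries fitted. Of 18 smooth muscle markers only Myocd was lower, against 3.24% of all genes (median -0.13), and the sum ranged from 6389 to 10170.0 TPM (median 8390.0) in CD M and from 5502 to 9615 TPM (median 6491) in HFD+E2 M, led by Acta2. Without HFD+E2 M replicate 4, 5 were lower, against 535 of all 15201 genes tested. Of 5 skeletal muscle markers tested of 15, 2 were lower, against 3.24% of all genes, and the sum ranged from 18.5 to 154 TPM (median 45.3) in CD M and from 17.2 to 46.6 TPM (median 22.5) in HFD+E2 M, led by Ckm. With DESeq2 8 of 13 were lower (median -1.66), without a filter on low counts 5 of 14 (median -1.60), over the fits without 1 library 1 to 4 of 5 or 6, with all 30 libraries in the fit 1 of 12 and with at least 10 counts in every library 0 of 3. Over all genes, 573 were higher and 627 lower of 27473 with DESeq2, and 776 and 960 of 27491 without a filter. They were 441 and 529 of 16060 with all 30 libraries, and 331 and 396 of 13326 with at least 10 counts. Without 1 library, 324 to 595 genes were higher and 409 to 644 lower. The adipocyte and squamous counts below are read against the same numbers. Acta1, of skeletal muscle actin, had a log2 fold change of -2.40 (SE 0.61, edgeR unadjusted p = 0.00156), but its level was at most 11.02 TPM. Of 8 adipocyte markers tested of 14, Adipoq, Cidec, Fabp4 and Lipe were higher, against 2.75% of all genes, and the sum ranged from 45.3 to 71.5 TPM (median 52.9) in CD M and from 40.99 to 76.8 TPM (median 58.2) in HFD+E2 M, led by Pparg. The count was 0 without HFD+E2 M replicate 3, 1 without CD M replicate 3, 5 or 6, 2 without HFD+E2 M replicate 1, 2 without replicate 1 of both groups and 2 of 6 with at least 10 counts in every library. Adipoq, the adiponectin gene, had at most 4.23 TPM and a log2 fold change of 1.52 (SE 0.63, edgeR unadjusted p = 0.0294). It was no DEG without replicate 1 of both groups, without a filter or with the replicate block (edgeR unadjusted p = 0.0996, 0.0595 and 0.09). With DESeq2 (unadjusted p = 0.0627), and without CD M replicate 5 or 6 or HFD+E2 M replicate 1 or 3, Adipoq was no DEG either. Of 30 markers of squamous epithelium, such as that of the anal margin, 7 were tested and Tgm3, Krt17 and Ly6d were higher, against 2.75% of all genes (median 0.46). Krt17 had 1 to 19 and Ly6d 1 to 26 counts per CD M library. With low genes included the median was negative. Without a filter on low counts 3 of 28 were higher and 6 lower (median -0.337), with DESeq2 3 were higher and 3 lower (median -0.342), with all 30 libraries in the fit 1 of 27 was higher (median -0.36), and with at least 10 counts in every library 1 of 3 was. Tgm3, a transglutaminase that the colon also expresses, made up most of the sum, rising by 0.67 (SE 0.11, edgeR adjusted p = 0.0134, lost without CD M replicate 4), and without it the list summed to 15.2 to 27.8 TPM in CD M and 11.5 to 18.9 TPM in HFD+E2 M. The part of these tissues in the differences was not tested.

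The counts in the remaining lists are read against the 2.75% of all genes higher and 3.24% lower. Of 21 antioxidant genes, Gpx3 was higher and Nqo1 lower. Of 27 interferon response genes Oasl1 was higher and Xaf1 lower, and of 18 immediate early genes Junb and Cyr61 were higher. Ndrg1 was the 1 DEG of 18 hypoxia targets, Ndufa1 of 26 nuclear genes of the respiratory chain and Pi16 of 20 fibroblast and matrix markers, each higher. Igfbp3 was the 1 DEG of 14 genes of the IGF system, Flt1 of 14 endothelial markers, and Elavl4 and Syt1 the DEGs of 16 enteric neuron, glia and pacemaker markers, each lower. No DEG was found among 16 genes of glycolysis and gluconeogenesis (median 0.14), 8 mitochondrially encoded genes, 7 tuft cell markers, 6 markers of neutrophils, eosinophils and mast cells or the 4 Y-linked genes tested. With DESeq2 1 of 18 genes of glycolysis and gluconeogenesis was lower, and the other 4 of these lists again held no DEG.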

How the data were processed

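RNA-seq of colon tissue was compared between 6 HFD+E2 M and 6 CD M libraries, grouped by their labels. The authors trimmed the reads, aligned them with STAR to mm10 (GRCm38) and used featureCounts for gene-level counting, and the resulting whole-number counts were deposited without normalization for 46078 genes. The submitters' processing notes also name bcl2fastq 2.19.1.403, CASAVA and Trim Galore. The authors made the deposited TPM values with StringTie, and up to 24 genes listed more than once in a TPM table were summed here. The counts of all 30 libraries correlated best with their own TPM.

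Counts were fitted with edgeR 4.0.16 (filterByExpr, TMM, robust quasi-likelihood F-test) in R 4.3.3. SEs follow from the F statistic and intervals cover 95%. Single values were compared by exact permutation tests of log2 CPM (prior count 2), whose smallest two-sided p-value is 0.00216. Tests were tried on simulated data. The study calls the 6 libraries of a group biological replicates. The counts have no molecular identifiers.

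Named genes were the 10 largest increases and 10 largest decreases that passed the adjusted threshold, averaged 1 TPM or more in CD M or HFD+E2 M and did not overlap in log2 CPM, the 4 lowest p-values and the most abundant gene of each of 43 lists, the clock and receptor genes, and genes the study names; the genes of a list that were DEGs are also named. The members and lists were chosen with earlier results of these data known. Lists were described by counts and medians without a test, and some of their genes are not reported here. Promoters and their motifs were read from RefSeq (GRCm38.p6). Alternatives were DESeq2 1.42.0, its size factors, other filters on low counts, no fold change minimum, all 30 libraries, the replicate number as a block, mitochondrial genes left out, log2 TPM with limma 3.58.1 (1 or 0.1 added), and each library left out. Leaving out replicate 1 of both groups, and the counts of list members under each alternative, were added after seeing the data.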

Additional observations from a re-analysis of the deposited data

Results flagged for a closer look

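Among 202 groups of 6 values tested by Dixon's criterion (the gap to the nearest library over the range of the group, at its 95% critical value), 18 held a library far from the other 5, where chance gives about 1 in 20 groups. In CD M these were replicate 1 for Hao2 (67.2 TPM), Ccnd2 (87.2 TPM) and Esr2 (2.10 TPM), replicate 4 for Mki67 (103 TPM) and Cfb (81.1 TPM), replicate 6 for Ckmt2 (0.368 TPM) and Iyd (7.21 TPM), and replicate 3 for Chga (4.69 TPM). In HFD+E2 M they were replicate 2 for Smoc1 (0.852 TPM) and RP23-465P18.1 (listed at 0 TPM), replicate 1 for Chgb (12.2 TPM) and replicate 4 for Melk (1.22 TPM). HFD+E2 M replicate 3 had by far the most counts (17243712). Of the marker sums, HFD+E2 M replicate 4 stood apart for tuft cell (18.6 TPM), smooth muscle (9615 TPM) and skeletal muscle markers (46.6 TPM), and replicate 1 for markers of neutrophils, eosinophils and mast cells (204 TPM) and of colonocytes (7836 TPM). Of these 204 TPM, 186 TPM were Ly6g alone, which was also at 179.6 TPM in CD M replicate 1.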

How the results depend on the processing

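DEGs at the threshold of the study numbered 754 to 1239 over the 12 fits without 1 library, 1736 without a filter on low counts and 1622 without the fold change minimum. Genes past the adjusted threshold numbered 7 to 55 without 1 library, 239 with DESeq2, 86 without a filter, 51 with at least 10 counts in every library, 49 with all 30 libraries in the fit and 70 without replicate 1 of both groups, which held 32, 30, 29, 20 and 24 of the 32 genes. The cause of these differences was not tested. Pseudo-F was 1.98 to 2.89 without 1 library. The mitosis count of 21 was 18 to 22 over the alternatives fitted to counts, and that of DNA replication 1 to 15 without 1 library.

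The replicate numbers are in the labels of both groups, but same-numbered libraries deviated together only for replicate 1 (correlation 0.494, the other 5 between -0.077 and 0.067), and 1 of 6 libraries correlated best with its own number, so the numbers were not taken to pair the animals. With the replicate block, 79 genes passed the adjusted threshold, 30 of the 32 among them, 920 were DEGs and 4 genes of DNA replication were DEGs and lower.

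Alternatives were compared for 81 genes with a fold change in the text, wherever they passed that alternative's filter. Outside the fits without 1 library, their direction never changed, and 35 comparisons lost and 1 gained the threshold of the study, while 844 kept their side of it. Without 1 library, Npas2 ranged from -0.0550 to 0.364 and Adgre1 from -0.215 to 0.00896 on the log2 scale and so changed sign. Depth limits genes of few counts, such as Nos2, and 6 animals a group limit calls of small changes.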
